A study of Mus musculus with 6 samples.

Results

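The set described here holds 37 genes of glycolysis and of the cellular response to low oxygen, measured in mouse liver sinusoidal endothelial cells (LSEC), whose porous sheets wall the smallest blood channels of the liver. The members are 25 genes for enzymes that take glucose to pyruvate and lactate or that steer pyruvate, and 12 genes of the hypoxia-inducible factor (HIF) pathway. They were taken by symbol from the 51165 rows of the deposited count table, and each of the 37 symbols had 1 row. The rule itself used no measured value, but the set was chosen with earlier results of these data known. The study set NICeCA mice, in which tamoxifen injection switched on Notch signalling according to the labels, against wild type mice that were given tamoxifen as well. Both genotypes were C57BL/6 and aged 7 to 8 weeks, and the cells came from liver. Total RNA was sequenced from 3 NICeCA isolates, numbered 1, 2 and 3, and from 3 wild type isolates, numbered 1, 3 and 4. The labels name neither the promoter behind the NICeCA alleles nor the sex of the mice, and do not say whether each library was 1 animal, so every p-value below reflects library-to-library spread alone, some of which may be technical.

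Glycolysis splits glucose into pyruvate, and lactate dehydrogenase then turns pyruvate into lactate or back. Endothelial cells draw much of their ATP from this route even when oxygen is plentiful, and the PFKFB enzymes set its pace by making or removing the sugar phosphate that activates phosphofructokinase. HIF is a pair of an oxygen-sensitive alpha subunit and the stable beta subunit ARNT. In the presence of oxygen, EGLN prolyl hydroxylases mark the alpha subunit for destruction, and when oxygen is short HIF binds the hypoxia response core in DNA and raises transcription of many glycolytic genes and of targets such as Bnip3, Ndrg1 and the collagen prolyl hydroxylases.

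Library totals lay between 28624549 and 29672685 counts in NICeCA cells and between 26254649 and 30034191 counts in wild type cells. Levels are given as CPM, the count relative to the TMM-scaled library total (1 CPM was 26.25 to 30.03 counts before scaling), and fold changes are log2 values of NICeCA over wild type with their standard error (SE) from edgeR's quasi-likelihood fit over 19795 genes. The Notch target Hey1 had 742, 979 and 1182 counts in the NICeCA libraries, against 147, 158 and 175 counts in the wild type libraries, with a log2 fold change of 2.46 ± 0.20 (edgeR adjusted p = 0.0367). The adjusted p was 0.0537 with limma-voom and 0.0625 to 0.316 with 1 library left out, except without NICeCA 1, where it stayed under 0.05, while the log2 fold change stayed at 2.30 to 2.62. The other genes read as a Notch check, Heyl, Nrarp and Notch1, were also higher in every NICeCA library. Their log2 fold changes were 1.04 ± 0.15, 1.46 ± 0.39 and 0.36 ± 0.15, and none passed edgeR's threshold (adjusted p = 0.0941, 0.194 and 0.294). The isolates differed in markers of other cells. The summed level of 10 neutrophil and monocyte markers was 2891.3, 4106.2 and 15443.4 CPM in NICeCA 1, 2 and 3, against 863.2, 127.0 and 2688.1 CPM in wild type 1, 3 and 4. No NICeCA sum overlapped a wild type one, though NICeCA 1 and wild type 4 were close. Taken singly, all 10 markers had a positive fold change. S100a9, Ltf, Elane, Camp and Ngp did not overlap between genotypes, while S100a8, Mpo, Ly6g, Retnlg and Mmp8 did. All 8 pan-endothelial markers had a negative fold change, and their sum was 12293.7, 11807.5 and 8311.0 CPM in NICeCA cells, against 13213.2, 12850.1 and 12185.0 CPM in wild type cells. The 7 sinusoidal markers, which fit the label of the cells, summed to 8701.0 to 15116.2 CPM in NICeCA cells and to 17412.9 to 18914.5 CPM in wild type cells. NICeCA 3 therefore stood apart with the most neutrophil and the least endothelial RNA. In the wild type group, library 4 stood apart with 1442.7 CPM of Kupffer cell markers, against 78.2 and 108.8 CPM in the other wild type libraries and 121.7 to 1075.3 CPM in NICeCA cells. Markers of 3 other classes also separated the genotypes. B cell markers summed to 12.9 to 17.4 CPM in NICeCA cells and 1.98 to 6.14 CPM in wild type cells, and cell cycle markers to 137.7 to 153.8 CPM in NICeCA cells and 43.8 to 123.0 CPM in wild type cells. The 7 stellate and smooth muscle markers summed to 377.5, 328.1 and 364.9 CPM in NICeCA 1, 2 and 3, against 386.1, 466.9 and 594.0 CPM in wild type 1, 3 and 4, with 3 positive and 4 negative fold changes among them. Fewer cells of a type and less RNA per cell cannot be told apart in such bulk samples.

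Of the 12 HIF pathway genes 7 had a negative and 5 a positive fold change. The 7 members grouped as HIF targets leave out Egln3 and the hypoxia-inducible genes among the glycolytic and pyruvate members. Of these 7 targets 5 were lower in every NICeCA library than in any wild type library: P4ha2, Bnip3, Ndrg1, P4ha1 and Higd1a. The same held for 11.8% of all tested genes, and for 2 of 37 further HIF and hypoxia genes outside the set. Of the 24 glycolytic and pyruvate genes that could be tested 16 had a positive and 8 a negative fold change, beside 9571 positive and 10224 negative over all tested genes. Among the positive ones were Pfkfb4 at 3.44-fold and Pfkfb3 at 1.33-fold the wild type level. The median log2 fold change was -0.21 over the HIF pathway genes and 0.18 over the glycolytic and pyruvate genes, beside -0.014 over all tested genes. Without NICeCA 3 these medians were -0.32 for the HIF pathway genes and 0.07 for the glycolytic and pyruvate genes. The difference between the medians was not tested. Eno2, the neuronal enolase, was too low to test, with 1, 0 and 21 counts in NICeCA 1, 2 and 3, against 7, 2 and 5 counts in wild type 1, 3 and 4.

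No member passed edgeR's adjusted threshold of 0.05, which 9 of all 19795 tested genes passed, 0.0455%. The smallest adjusted p of a member was 0.122, for P4ha2. At an unadjusted edgeR p under 0.05 there were 10 of 36 members, or 27.8%, with 2 higher and 8 lower in NICeCA cells, beside 16.5% of all tested genes (9.12% higher and 7.38% lower). Without NICeCA 3 this count was 8, with 2 higher and 6 lower (22.2%, beside 10.3% of all tested genes in that fit), and without wild type 4 it was 11, with 6 higher and 5 lower (30.6%, beside 14.8%). DESeq2, which called 5.24% of its 20739 genes (3.53% higher and 1.71% lower), called Pfkfb4 higher and P4ha2, Ndrg1 and Bnip3 lower, and limma-voom called no member. In 13 members, or 36.1%, the libraries of the genotypes did not overlap, with 3 higher and 10 lower in NICeCA cells, beside 23.4% of all tested genes (11.6% higher and 11.8% lower). With fewer libraries such separation is more frequent for any gene: without NICeCA 3 it held for 16 members (44.4%, beside 30.4% of all tested genes), and without wild type 4 for 20 (55.6%, beside 34.2%). Among the 7 members grouped as HIF targets, 5 were without overlap and lower (71.4%) and 4 were under an unadjusted edgeR p of 0.05. Their median log2 fold change was -0.62. Hypoxia-inducible members grouped elsewhere went both ways, such as Pfkfb4 at 1.78, Pdk1 at -0.47 and Egln3 at 0.05, so the 7 do not stand for all HIF-responsive members.

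**Figure D1:**
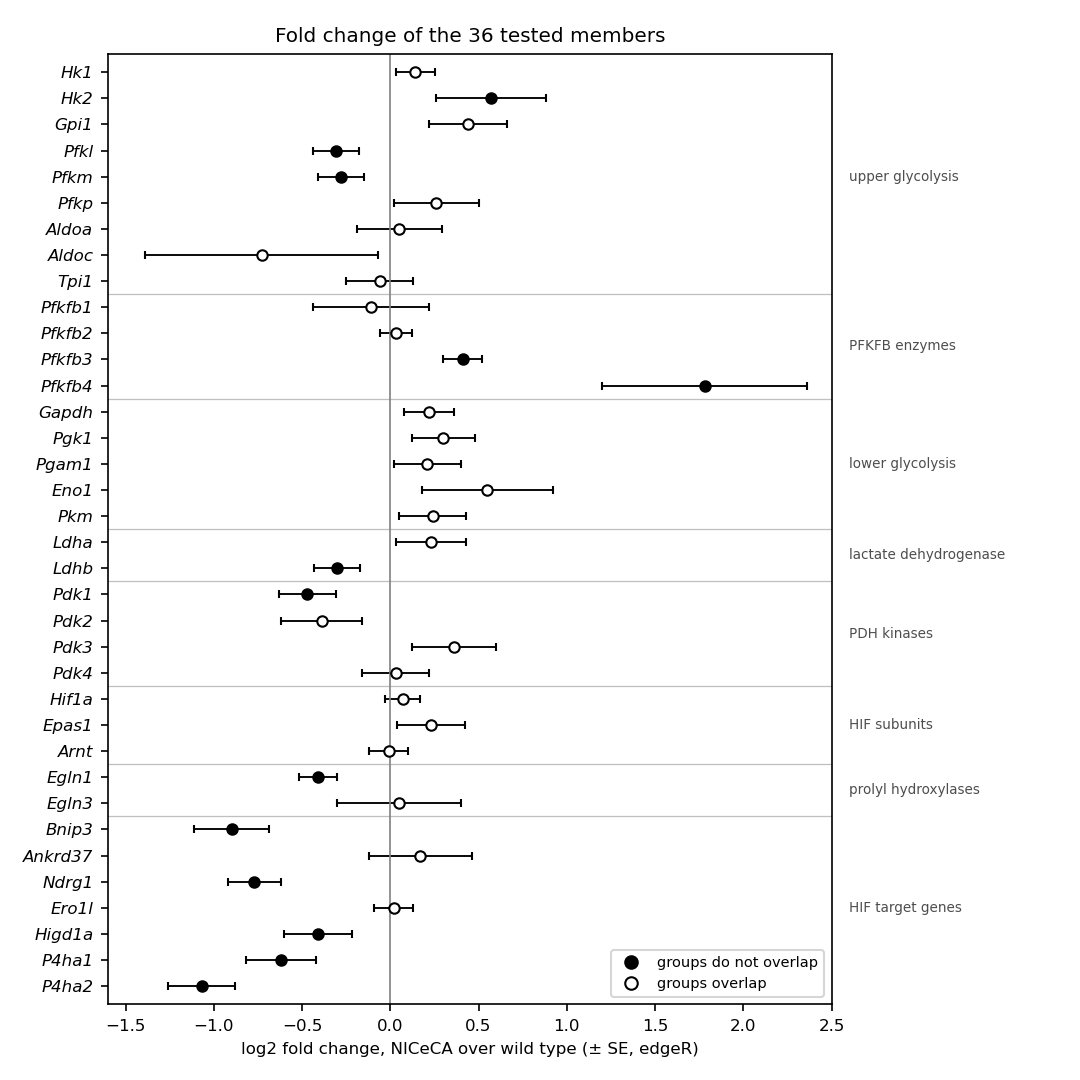
Log2 fold change of NICeCA over wild type for the 36 tested members, grouped by role along the vertical axis. Points are edgeR estimates with bars of ± 1 SE from 3 libraries per genotype, filled where the libraries of the genotypes do not overlap. Of the 24 glycolytic and pyruvate members 16 are positive and 8 negative, from -0.73 for Aldoc to 1.78 for Pfkfb4. Of the 7 members grouped as HIF targets 5 are negative and 2 positive, from -1.07 for P4ha2 to 0.17 for Ankrd37.

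**Figure D2:**
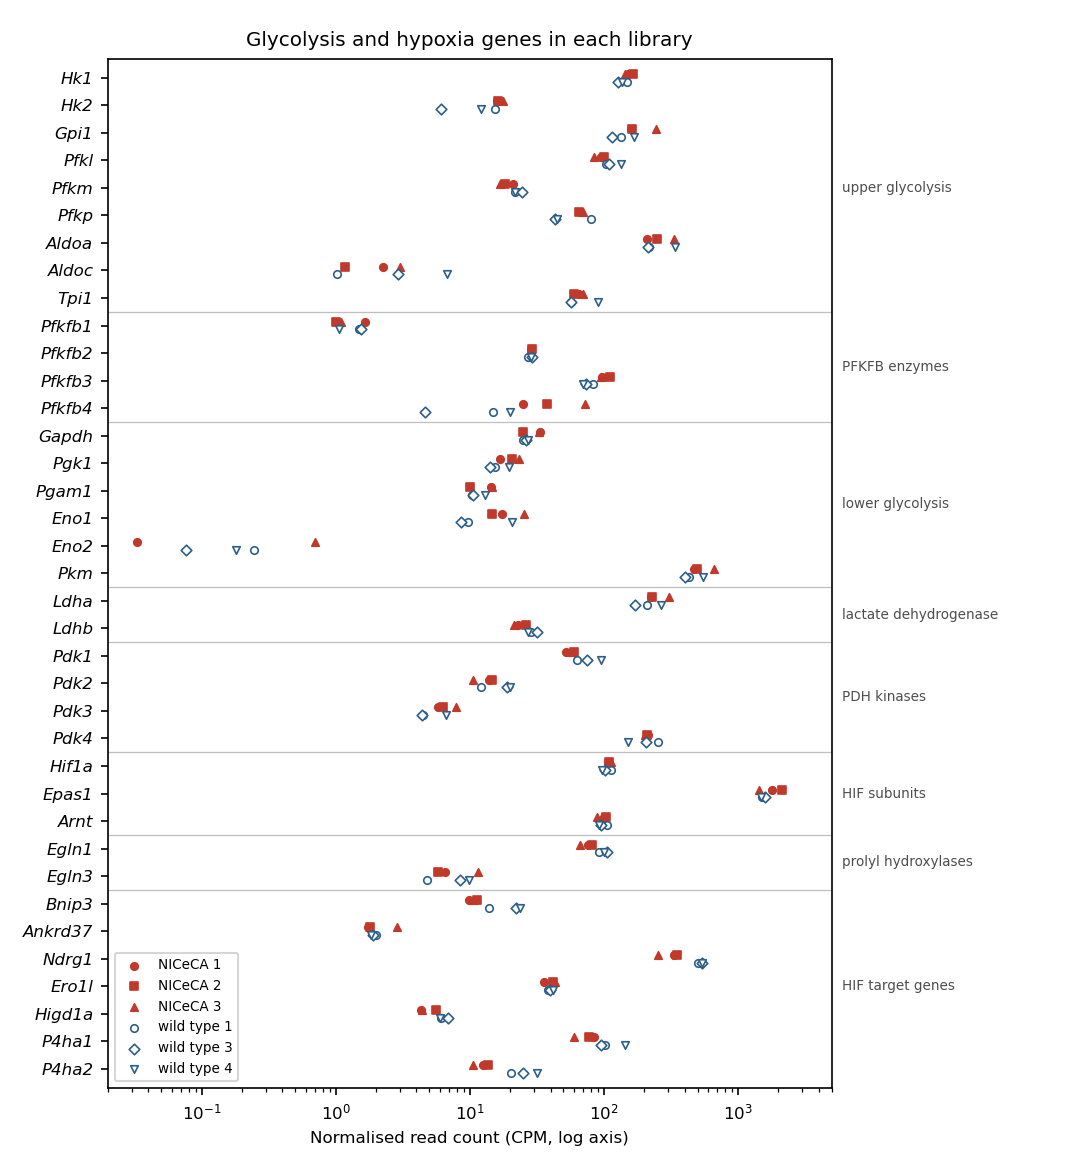
CPM of all 37 members in each library on a log axis, with NICeCA libraries as filled red symbols and wild type libraries as open blue symbols. Epas1 is the member with the most reads, and Eno2 and Pfkfb1 are near the bottom. The 0 of Eno2 in NICeCA 2 cannot be drawn on a log axis.

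The promoters of 3 HIF pathway genes that were lower in NICeCA cells and of Pfkfb4, which was higher, are shown to place the hypoxia response core beside the values that follow. Each is the 300 bases from 250 before to 50 after the gene's start, on the gene's own strand, from RefSeq on build GRCm38.p6. Capitals mark the core, ACGTG or GCGTG read on either strand, so that CACGT and CACGC are the same letters on the other strand and CACGTG holds 2 overlapping matches. They are P4ha2 at chr11:54100674-54100973 (plus strand), Bnip3 at chr7:138909457-138909756 (minus strand), Egln1 at chr8:124949205-124949504 (minus strand) and Pfkfb4 at chr9:108991652-108991951 (plus strand).
P4ha2: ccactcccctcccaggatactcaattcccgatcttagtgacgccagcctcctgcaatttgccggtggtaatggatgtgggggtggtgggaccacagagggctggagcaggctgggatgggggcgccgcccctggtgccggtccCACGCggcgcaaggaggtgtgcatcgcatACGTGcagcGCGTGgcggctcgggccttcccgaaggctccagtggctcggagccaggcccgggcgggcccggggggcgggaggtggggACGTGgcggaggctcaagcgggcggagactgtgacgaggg
Bnip3: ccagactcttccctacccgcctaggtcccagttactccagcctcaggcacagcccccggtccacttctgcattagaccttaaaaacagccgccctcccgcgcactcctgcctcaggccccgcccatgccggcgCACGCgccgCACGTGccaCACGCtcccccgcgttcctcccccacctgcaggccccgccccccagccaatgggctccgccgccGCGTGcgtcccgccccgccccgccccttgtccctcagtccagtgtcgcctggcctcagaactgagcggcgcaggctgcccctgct
Egln1: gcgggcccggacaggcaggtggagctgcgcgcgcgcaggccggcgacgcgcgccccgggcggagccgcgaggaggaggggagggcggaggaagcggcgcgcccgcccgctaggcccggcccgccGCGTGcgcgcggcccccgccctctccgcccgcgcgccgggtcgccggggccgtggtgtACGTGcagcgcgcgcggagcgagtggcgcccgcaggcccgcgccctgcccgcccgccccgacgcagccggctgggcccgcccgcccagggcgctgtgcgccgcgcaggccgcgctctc
Pfkfb4: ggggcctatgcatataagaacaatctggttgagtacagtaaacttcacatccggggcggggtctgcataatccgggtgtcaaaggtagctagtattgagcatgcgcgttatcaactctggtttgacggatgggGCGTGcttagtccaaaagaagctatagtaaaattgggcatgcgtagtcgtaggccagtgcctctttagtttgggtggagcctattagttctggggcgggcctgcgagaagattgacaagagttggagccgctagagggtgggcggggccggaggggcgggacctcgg
The P4ha2 window held 4 matches, the Bnip3 window 5, the Egln1 window 2 and the Pfkfb4 window 1. Of the 35 members with a promoter in the table, 32 had the core in at least 1 window (91.4%), 10 of 10 HIF pathway genes and 22 of 25 glycolytic and pyruvate genes (88.0%). In all, 43.8% of 32851 promoter windows of mouse genes and 46.7% of 27025 genes had it. The members had 54 windows, and a gene with more windows has more places for a match, which the shares by gene do not adjust for. Nor were the background genes matched to the members for base composition or expression, so the shares do not show an enrichment. A 7-letter motif of RBPJ, the DNA-binding partner of Notch, GTGGGAA on either strand, was in the windows of 2 members, Aldoc and Pdk4, and in 7.25% of all genes. Genes with the core had positive and negative fold changes in NICeCA cells, and a match describes letters only. Ndrg1 and Epas1 had no promoter sequence in the source, so they were not searched for either motif.

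The HIF subunits were well covered, and none passed a test. Hif1a, the alpha subunit found in most cells, had 107.1, 108.5 and 113.4 CPM in NICeCA 1, 2 and 3, against 112.4, 102.4 and 97.6 CPM in wild type 1, 3 and 4. These libraries overlapped, and the log2 fold change was 0.07 ± 0.10 (SE, n = 3 each, edgeR adjusted p = 0.748). Epas1 codes for HIF2 alpha, the alpha subunit that is prominent in endothelium, and was the most read member. It had 1807.7, 2148.7 and 1439.2 CPM in NICeCA cells, against 1523.6, 1581.7 and 1496.7 CPM in wild type cells. Its NICeCA libraries lay on both sides of the wild type ones, with a log2 fold change of 0.23 ± 0.19 (edgeR adjusted p = 0.589). Arnt, the shared beta subunit, had 99.6, 103.8 and 88.6 CPM in NICeCA cells, against 106.4, 95.8 and 91.5 CPM in wild type cells. The genotypes overlapped for Arnt too, at -0.01 ± 0.11 (edgeR adjusted p = 0.98).

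Scaled to gene length, Epas1 reached 336.0 ± 66.3 CPM per kb in NICeCA cells and 286.6 ± 8.12 CPM per kb in wild type cells (SD, n = 3 each), the highest level of any member. Hif1a had 22.2 ± 0.664 CPM per kb in NICeCA cells and 21.1 ± 1.53 CPM per kb in wild type cells, and Arnt had 21.8 ± 1.76 CPM per kb in NICeCA cells and 21.9 ± 1.73 CPM per kb in wild type cells. Epas1 thus stood more than 10 times above both, and Hif1a and Arnt did not differ beyond their spread. Next in NICeCA cells came Pkm with 185.0 ± 37.2, Ldha with 131.2 ± 23.5 and Ndrg1 with 107.8 ± 18.2 CPM per kb. In wild type cells Pkm had 156.8 ± 26.5, Ldha 111.9 ± 25.6 and Ndrg1 183.3 ± 8.06 CPM per kb. This order is uncertain, because copy rows took 36.26% of the counts of Pkm and its copies together and 14.11% of those of Ldha. The copy row Gm6560 alone had 143.7 ± 31.5 CPM per kb in NICeCA cells and 113.2 ± 27.9 CPM per kb in wild type cells. Ldha lay within about its own SD of Ndrg1 in NICeCA cells, and Pkm likewise in wild type cells.

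**Figure D3:**
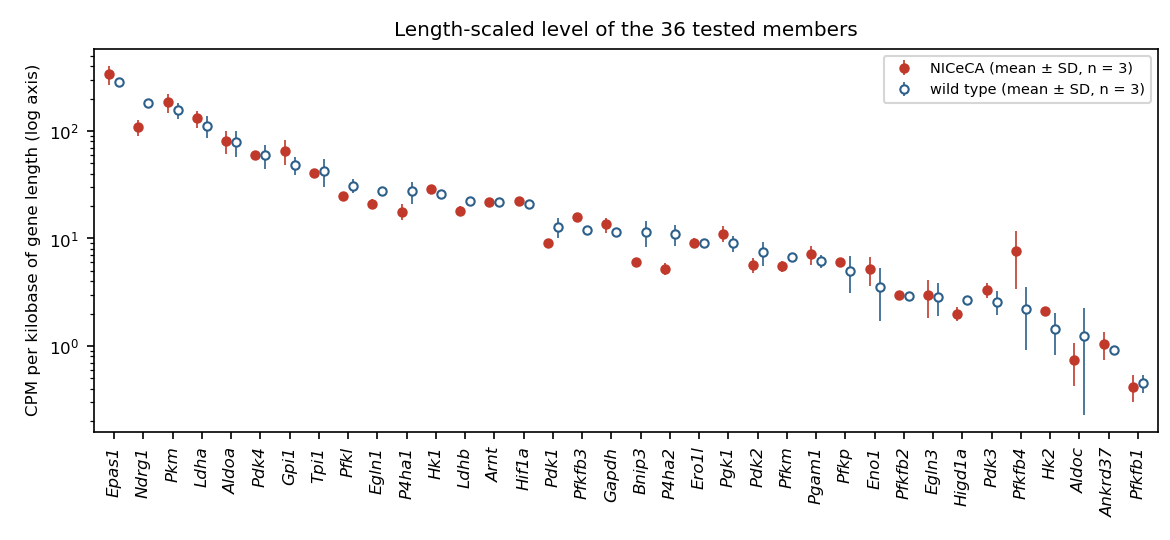
CPM per kb of gene length (log axis) for the 36 tested members, ordered by their wild type level along the horizontal axis. Filled red points are NICeCA means and open blue points wild type means of 3 libraries, with bars of 1 SD. Epas1 is highest, Ndrg1 stands at 107.8 in NICeCA and 183.3 in wild type cells, and Pfkfb4 at 7.63 in NICeCA and 2.22 in wild type cells.

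Of the prolyl hydroxylases that oppose HIF, Egln1 codes for the main oxygen sensor. It had 76.5, 81.7 and 66.4 CPM in NICeCA 1, 2 and 3, against 92.5, 104.9 and 100.6 CPM in wild type 1, 3 and 4. Every NICeCA library was below every wild type library, at -0.41 ± 0.11 (SE, n = 3 each), with an unadjusted p of 0.00852 and an edgeR adjusted p of 0.198. Egln3, a hydroxylase that is itself induced by hypoxia, overlapped between genotypes at 0.05 ± 0.35, and this value was -0.31 without NICeCA 3.

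P4ha2 and P4ha1 code for the catalytic subunits of the enzyme that hydroxylates proline in collagen. P4ha2 had 12.6, 13.6 and 10.6 CPM in NICeCA 1, 2 and 3, against 20.4, 24.9 and 31.7 CPM in wild type 1, 3 and 4. No library overlapped and the log2 fold change was -1.07 ± 0.19 (SE, n = 3 each), with an edgeR adjusted p of 0.122 and a DESeq2 adjusted p of 0.000477. P4ha1 had 84.7, 77.8 and 60.4 CPM in NICeCA cells, against 102.1, 95.4 and 144.5 CPM in wild type cells. Its groups were also apart, with wild type 4 well above the rest, at -0.62 ± 0.20 (edgeR adjusted p = 0.221, DESeq2 adjusted p = 0.102). Without wild type 4 the log2 fold change was -0.42 for P4ha1 and -0.89 for P4ha2. The sum of the stellate and smooth muscle markers was lower in every NICeCA library as well, and its wild type libraries stood in the same order as those of P4ha2. The NICeCA libraries did not share an order: the marker sum was lowest in NICeCA 2 (328.1 CPM), where P4ha2 was highest among them. Of the 7 markers 3 had a positive and 4 a negative fold change. The stellate gene Lrat was at -0.84 ± 0.15 (DESeq2 adjusted p = 0.000635) and the matrix gene Dcn at -0.73 ± 0.21 (0.041). Higher were Col1a1, Acta2 and Myh11, at 2.08 ± 0.33, 2.05 ± 0.32 and 1.59 ± 0.15 (DESeq2 adjusted p = 5.35e-07, 1.26e-06 and 2.06e-12). The part of these markers in the P4ha1 and P4ha2 difference was not tested.

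Ndrg1, a stress-responsive gene of cell differentiation and a classical hypoxia target, was the most abundant of the 7 members grouped as HIF targets. It had 332.5, 350.8 and 251.7 CPM in NICeCA 1, 2 and 3, against 502.8, 542.6 and 543.7 CPM in wild type 1, 3 and 4. The NICeCA libraries all lay below the wild type ones, NICeCA 3 lowest, at -0.77 ± 0.15 (SE, n = 3 each, edgeR adjusted p = 0.141, DESeq2 adjusted p = 0.00165). Its log2 fold change was -0.63 without NICeCA 3. The pan-endothelial markers had a median log2 fold change of -0.34 and the sinusoidal markers of -0.54, and their part in the lower Ndrg1 and P4ha2 levels was not tested.

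Bnip3, which codes for a receptor that marks mitochondria for removal, had 9.94, 11.3 and 10.8 CPM in NICeCA 1, 2 and 3, against 13.8, 22.2 and 23.8 CPM in wild type 1, 3 and 4. The genotypes did not overlap, at -0.90 ± 0.21 (SE, n = 3 each, edgeR adjusted p = 0.173, DESeq2 adjusted p = 0.0123). A row on the opposite strand overlaps Bnip3 and held counts equal to 37.5% of its own, with a log2 fold change of -0.97 ± 0.27, and a like row over Ndrg1 held 17.9% at -0.74 ± 0.15. Whether counting used the strand is not stated, so reads of these overlapping rows cannot be told apart. Higd1a, a small protein of the mitochondrial inner membrane, had 4.29, 5.57 and 4.42 CPM in NICeCA cells, against 6.14, 6.82 and 5.99 CPM in wild type cells. It was without overlap, at -0.41 ± 0.19 and an unadjusted p of 0.0676 (edgeR adjusted p = 0.338). The remaining targets were near 0 on the log2 scale, with Ero1l, an oxidase of the endoplasmic reticulum, at 0.02 ± 0.11 and Ankrd37 at 0.17 ± 0.29.

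**Figure D4:**
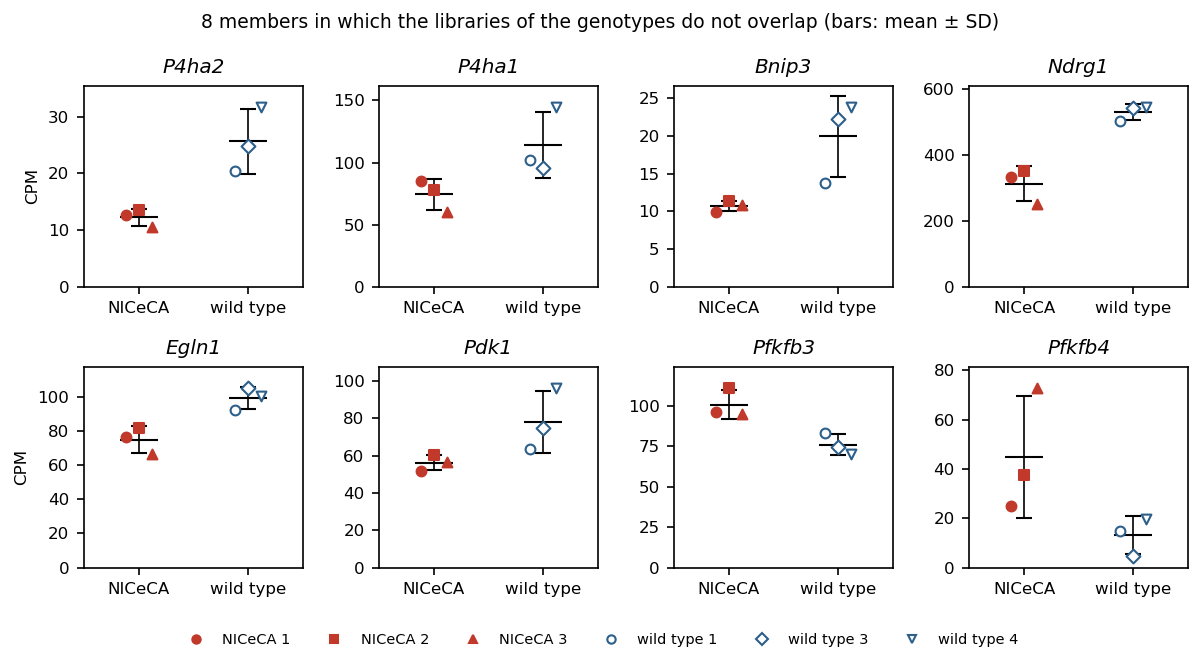
CPM in each library for 8 members, chosen after their values were seen, with NICeCA left of wild type. Lines are means and bars are ± 1 SD over 3 libraries. P4ha2, P4ha1, Bnip3, Ndrg1, Egln1 and Pdk1 are lower in every NICeCA library than in any wild type library, and Pfkfb3 and Pfkfb4 are higher in every NICeCA library.

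Of the glycolytic and pyruvate genes, the smallest unadjusted p-values belonged to 2 regulators of phosphofructokinase. Pfkfb3, the main PFKFB enzyme of endothelial cells and one that favours glycolysis, had 96.3, 110.6 and 94.8 CPM in NICeCA 1, 2 and 3, against 82.9, 74.2 and 70.4 CPM in wild type 1, 3 and 4. Every NICeCA library was above every wild type library, at 0.41 ± 0.11 (SE, n = 3 each), with an unadjusted p of 0.00802, an edgeR adjusted p of 0.197 and a DESeq2 adjusted p of 0.116. Leaving out 1 library gave 0.33 to 0.47. Pfkfb4, a hypoxia-inducible relative, had 24.8, 37.4 and 72.7 CPM in NICeCA cells, against 14.8, 4.64 and 19.8 CPM in wild type cells. NICeCA 3 was highest and wild type 3 lowest, with no overlap, at 1.78 ± 0.58 (edgeR adjusted p = 0.222, DESeq2 adjusted p = 0.0183).

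The 6 libraries stood in the same order for Pfkfb4 as for the summed neutrophil and monocyte markers, and Pfkfb4 was the only 1 of the 36 tested members of which this held (2.78%, beside 2.33% of all tested genes). The log2 fold change of Pfkfb4 was 1.25 without NICeCA 3 and 1.37 without wild type 3. The part of the neutrophil and monocyte RNA in the Pfkfb4 difference was not tested. Pfkfb3 did not follow that order, since NICeCA 3 held its lowest NICeCA level. Pfkfb2 and Pfkfb1, the heart and liver forms, overlapped between genotypes at 0.03 ± 0.09 and -0.11 ± 0.33.

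The enzymes of the upper chain gave no common direction, with 5 of 9 positive, 4 negative and a median of 0.05. Hk2, the inducible hexokinase that phosphorylates glucose at the first step, had 15.9, 16.2 and 17.8 CPM in NICeCA 1, 2 and 3, against 15.4, 6.06 and 12.2 CPM in wild type 1, 3 and 4. The groups touched without overlap, at 0.57 ± 0.31 (SE, n = 3 each, edgeR adjusted p = 0.412), and without wild type 3 the value was 0.27. Hk1, the constitutive hexokinase, was at 0.14 ± 0.11, and Gpi1, which turns glucose phosphate into fructose phosphate, at 0.44 ± 0.22. For Pfkl, the liver phosphofructokinase, there were 95.9, 100 and 84.3 CPM in NICeCA cells, against 103.5, 109.9 and 134.0 CPM in wild type cells. This enzyme was thus lower in each NICeCA library, at -0.31 ± 0.13 with an unadjusted p of 0.0499 (edgeR adjusted p = 0.303).

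Pfkm, the muscle phosphofructokinase, was likewise without overlap at -0.28 ± 0.13, and the platelet form Pfkp overlapped at 0.26 ± 0.24. Aldoc, the brain aldolase, had few reads, with 2.24, 1.18 and 2.99 CPM in NICeCA 1, 2 and 3, against 1.02, 2.91 and 6.75 CPM in wild type 1, 3 and 4. Its libraries overlapped widely, and the log2 fold change of -0.73 ± 0.66 (edgeR adjusted p = 0.629) was 0.11 without wild type 4. Aldoa, the main aldolase, and Tpi1, which interconverts the 2 triose phosphates, were at 0.05 ± 0.24 and -0.06 ± 0.19.

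In the lower chain, from glyceraldehyde phosphate to pyruvate, all 5 testable enzymes had a positive fold change, between 0.21 and 0.55, and none had an unadjusted p under 0.05. Gapdh, which oxidises glyceraldehyde phosphate, had 33.4, 24.8 and 33.0 CPM in NICeCA 1, 2 and 3, against 25.1, 26.4 and 27.1 CPM in wild type 1, 3 and 4. NICeCA 2 lay below all wild type libraries, so the groups overlapped, at 0.22 ± 0.14 (edgeR adjusted p = 0.49). Eno1, the widely expressed enolase, had 17.3, 14.6 and 25.4 CPM in NICeCA cells, against 9.75, 8.66 and 20.8 CPM in wild type cells. Wild type 4 lay above NICeCA 1 and 2, and the log2 fold change of 0.55 ± 0.37 (edgeR adjusted p = 0.508) was 1.05 without wild type 4 and 0.29 without NICeCA 3. Pkm, the pyruvate kinase of most tissues, had 466.5, 493.6 and 667.4 CPM in NICeCA cells, against 431.6, 400.3 and 547.9 CPM in wild type cells. In each genotype the highest library was the one with most neutrophil and monocyte markers, and the groups overlapped at 0.24 ± 0.19 (edgeR adjusted p = 0.584).

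Several of these levels are uncertain because the mouse genome holds many near-identical copies of the genes. Rows described as copies held 42.22% of the counts of Gapdh and its copies together, 74.36% for Pgam1, 36.26% for Pkm, 38.14% for Ldhb, 16.96% for Pgk1 and 14.11% for Ldha. For Gapdh these were 261 rows, of which 96 had counts. With the copies added to the member, the log2 fold change was 0.14 for Gapdh, 0.31 for Pgam1, 0.28 for Pkm, 0.26 for Pgk1, 0.22 for Ldha and -0.29 for Ldhb, and no direction turned. How reads matching both a gene and a copy were counted is not stated, so these sums may still lack such reads. The levels stay uncertain for that reason. Genes on the opposite strand that overlap a member are a second limit, since the use of strand is not stated. Relative to the member's counts, Ufsp2 over Ankrd37 held 455.5%, Senp1 over Pfkm 259.5%, Iffo1 over Gapdh 191.8%, Pitrm1 over Pfkp 52.4%, Yod1 over Pfkfb2 29.7%, an unnamed row over Gpi1 27.4% and Spsb2 over Tpi1 23.0%. Overlapping rows of Ldha, Pdk2 and Hif1a held 11%, 8.7% and 8.1%.

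Lactate dehydrogenase is built from the LDHA chain, which favours lactate formation, and the LDHB chain, which favours pyruvate. Ldha had 225.2, 229.1 and 305.6 CPM in NICeCA 1, 2 and 3, against 210.5, 169.4 and 267.7 CPM in wild type 1, 3 and 4, and overlapped between genotypes at 0.23 ± 0.20 (SE, n = 3 each, edgeR adjusted p = 0.617). Ldhb had 22.9, 26.3 and 21.2 CPM in NICeCA cells, against 28.4, 31.6 and 27.0 CPM in wild type cells. It was lower in every NICeCA library, at -0.30 ± 0.13 with an unadjusted p of 0.0473 (edgeR adjusted p = 0.298). As a share of both chains, scaled for length, Ldhb made up 12.3% ± 2.69 in NICeCA cells and 17.1% ± 4.35 in wild type cells (SD, n = 3 each), a difference of -4.77 points with an exact two-sided permutation p of 0.3 and an adjusted p of 0.55.

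Pyruvate dehydrogenase kinases close the gate from pyruvate to the mitochondrial citric acid cycle. Pdk1, the hypoxia-inducible form, had 52.0, 60.1 and 56.6 CPM in NICeCA 1, 2 and 3, against 63.3, 74.9 and 96.0 CPM in wild type 1, 3 and 4. The groups did not overlap, at -0.47 ± 0.16 (SE, n = 3 each) with an unadjusted p of 0.0222 and an edgeR adjusted p of 0.235, and the value without wild type 4 was -0.30. The description in the deposited table names another kinase for this row, but its position, chr2:71873218-71903858 as the table gives it, lies at the RefSeq gene Pdk1. Pdk4, the fasting-induced form, was the most abundant kinase with 208.5 ± 5.70 CPM in NICeCA cells and 204.3 ± 51.6 CPM in wild type cells (SD, n = 3 each). Its log2 fold change was 0.03 ± 0.19, while Pdk2 was at -0.39 ± 0.23 and Pdk3 at 0.36 ± 0.24.

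Isoform shares were compared for 11 isoforms in 6 enzyme families, and no share separated the genotypes. Hk2 made up 6.93% ± 0.789 of length-scaled hexokinase reads in NICeCA cells and 5.13% ± 1.81 in wild type cells, and Pfkl made up 68.5% ± 1.86 of phosphofructokinase reads in NICeCA cells and 72.5% ± 5.24 in wild type cells (SD, n = 3 each). Pdk4 held 76.9% ± 1.04 of the kinase reads in NICeCA cells and 71.4% ± 9.62 in wild type cells. Exact two-sided permutation p-values lay between 0.2 and 0.7 and adjusted values between 0.55 and 0.7, where 3 against 3 libraries cannot give a p below 0.1.

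Genes of the same pathways outside the set were read from wider lists. Of 36 genes of glucose uptake, lactate export, the pentose phosphate route and pyruvate oxidation 34 were tested, 19 with a positive and 15 with a negative fold change. None passed edgeR's or limma-voom's adjusted threshold, 8 were higher and 3 lower at an unadjusted p under 0.05 (32.4% of those tested, beside 16.5% of all tested genes, 9.12% higher and 7.38% lower), and DESeq2 called Adpgk, an ADP-dependent glucokinase, higher (1.36 ± 0.46 in edgeR, DESeq2 adjusted p = 0.0365) and Pdhb, a subunit of pyruvate dehydrogenase, lower (-0.51 ± 0.12 in edgeR, DESeq2 adjusted p = 0.0334). For Adpgk the genotypes overlapped, NICeCA 3 was highest at 275.7 CPM, and the log2 fold change was 0.67 without NICeCA 3. The glucose transporter Slc2a3 had 104.7, 151.0 and 389.2 CPM in NICeCA 1, 2 and 3, against 57.1, 9.24 and 71.0 CPM in wild type 1, 3 and 4. The lactate exporter Slc16a3 had 109.3, 119.0 and 341.6 CPM in NICeCA cells, against 56.1, 10.8 and 65.8 CPM in wild type cells. Both were highest in NICeCA 3 and lowest in wild type 3, at 2.23 ± 0.78 and 2.10 ± 0.72. The other genes under that p were the hexokinase Hk3 (2.18 ± 0.79), the glucose transporter Slc2a1 (1.17 ± 0.45), and G6pdx, Tkt and Taldo1 of the pentose phosphate route (1.56 ± 0.64, 0.81 ± 0.28 and 0.67 ± 0.25), with Slc2a8 (-0.47 ± 0.16) and Gpd1l (-0.33 ± 0.12) lower. Hk3, Slc16a3, Slc2a1, Slc2a3, Taldo1 and Tkt had their 6 libraries in the order of the neutrophil and monocyte marker sum, 17.6% of the list beside 2.33% of all tested genes, and the part of those cells in the result was not tested.

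Of 40 further HIF and hypoxia genes 37 were tested, 21 with a positive and 16 with a negative fold change and a median of 0.07. At an unadjusted p under 0.05 there were 3 (8.11%, beside 16.5% of all tested genes), and none passed edgeR's or limma-voom's adjusted threshold. Pdgfb, an endothelial growth factor for pericytes, had 55.3, 114.5 and 94.6 CPM in NICeCA 1, 2 and 3, against 36.2, 29.9 and 40.3 CPM in wild type 1, 3 and 4. It was higher in every NICeCA library, at 1.31 ± 0.27 (SE, n = 3 each), and DESeq2 called it with an adjusted p of 0.00073. Bhlhe40, a hypoxia-inducible repressor, was at -0.41 ± 0.17 and Zfp395 at -0.35 ± 0.10. Vegfa, the best known HIF target of blood vessel growth, was at 0.03 on the log2 scale, with 51.0, 38.9 and 73.5 CPM in NICeCA cells, against 39.3, 60 and 60.6 CPM in wild type cells. Slc2a4 and Angptl4 were listed at 0 in every library.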

How the data were processed

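The authors deposited 1 table with raw read counts per gene and RPKM values, per the file headers. The deposited RPKM equalled counts per gene length and library total to a relative gap of 5.0e-06 over values of at least 50 counts, and was not used further. Which aligner, counter, build and strand setting were used is not given in the sources used here. Of the 37 members, 19 had coordinates identical to RefSeq GRCm38.p6, and positions of genes are those of the table.

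Counts were tested with edgeR 4.0.16 in R 4.3.3: filterByExpr (minimum count 10), TMM, estimateDisp, glmQLFit and glmQLFTest over 19795 genes, with Benjamini-Hochberg adjustment over all of them and a threshold of 0.05. The SE is the log2 fold change over the root of its F statistic. Totals of 26254649 to 30034191 counts make 1 CPM 26.25 to 30.03 counts. Alternatives were DESeq2 1.42.0 on all rows with its default filters, limma-voom (limma 3.58.1), other scalings and filters, a replicate block, rows of ribosomal and mitochondrial RNA left out, copies added to members, and each library left out in turn. Isoform shares were compared with exact permutation tests (scipy 1.17.1) adjusted over 11 shares.

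Members and lists were chosen with earlier results of these data known, so no list was tested as a set. Values per library are given for members with a log2 fold change of at least 0.5 in size, an unadjusted edgeR p under 0.05 or a DESeq2 adjusted p under 0.05, and for Hif1a, Epas1, Arnt, Egln1, Pfkfb3, Ldha, Pkm and Gapdh. Higd1a and Vegfa were added after their values were seen, and genes of the wider lists are named by the same p-values.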

Additional observations from a re-analysis of the deposited data

How the results depend on the processing

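DESeq2 called 4 members and 1087 genes in all, against 0 members and 9 genes with edgeR. The count of all genes called was 111 with no filter on low counts, 5 with limma-voom and 0 to 14 with 1 library left out, and no member was called in any of these. With library totals only, which put the median of all genes at 0.073, 4 members were higher and 5 lower at an unadjusted p under 0.05, and the median of the HIF pathway genes was -0.12. Leaving out 1 library gave 8 to 12 members under that p, 2 to 6 higher (6 without wild type 4) and 5 to 8 lower, with 2078 to 3695 of all genes. It gave 13 to 20 members without overlap (36.1% to 55.6%, beside 29.6% to 40.3% of all tested genes in the same fits), and medians of -0.32 to -0.19 for the HIF pathway genes and 0.07 to 0.21 for the glycolytic and pyruvate genes. The counts by unadjusted p and without overlap, their alternatives and the copies added were chosen after seeing the data.

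P4ha2, Bnip3, Ndrg1, P4ha1, Egln1, Pdk1, Pfkfb3 and Pfkfb4 kept their direction in all 15 alternatives. Of the 36 tested members 10 turned direction in at least 1 and 26 in none. Tpi1 was 0.03 and Arnt 0.08 with library totals only, and Arnt was 0.01 with a filter of 1 CPM in 3 libraries. With 1 library left out, the ranges were -0.36 to 0.02 for Pfkfb1, 0.00 to 0.04 for Pfkfb2, -0.16 to 0.29 for Aldoa, -1.18 to 0.11 for Aldoc, -0.18 to 0.19 for Tpi1, -0.15 to 0.21 for Pdk4, -0.31 to 0.26 for Egln3, -0.06 to 0.06 for Arnt, -0.10 to 0.29 for Ankrd37 and -0.03 to 0.10 for Ero1l. The difference in share ran from -1.63 to 0.382 points for Pfkm (0.382 without wild type 3) and from -1.43 to 0.0937 points for Eno2 (0.0937 without wild type 1, 0.0311 without NICeCA 2). The cause of these differences was not tested.

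Replicate numbers 1 and 3 occur in both genotypes. The deviations of same-numbered libraries correlated at r = -0.21 and -0.25, and those of unlike-numbered libraries at -0.2 to 0.2. With so few pairs these values cannot show whether same-numbered libraries shared a batch, which the labels do not state. With the replicate block edgeR called 0 genes and no member, 1596 genes and 4 members (1 higher, 3 lower) were under an unadjusted p of 0.05, the HIF pathway median was -0.28, Hey1 was 2.47 with an edgeR adjusted p of 0.613, and Aldoc was 0.56, Tpi1 0.25 and Pdk4 -0.14.

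The biological coefficient of variation over all genes was 0.283. Eno2, Pfkfb1, Ankrd37 and Aldoc had the fewest reads of the members, which limits their estimates. Aldoc also varied widely between the wild type libraries, from 1.02 to 6.75 CPM. The neutrophil, monocyte and Kupffer cell RNA of the isolates differed between libraries, and its part was not tested.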
